A study of Mus musculus with 6 samples.

Results

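The proteasome genes described here are the genes whose mouse symbol is Psma, Psmb, Psmc or Psmd followed by a number. They were found by symbol in the annotation of an Affymetrix array of the mouse genome, among probe sets assigned to a single gene. The rule gave 39 genes, with 78 probe sets, of 18193 genes with a single symbol. The probe set with the highest mean over the 6 arrays stood for each gene, and measured differences played no part in the choice. The tested arrays hold RNA from isolated hippocampal cells of transgenic mice, which the series describes as overexpressors of HuD, an RNA-binding protein of neurons encoded by Elavl4. The arrays they are set against hold the same preparation from control mice. Each group has 3 arrays from 2 mice, since the descriptions give 1 array for mouse 1 and 2 arrays for mouse 2. The titles leave a doubt here, since they number as control 1 and control 2 the pair of arrays that the descriptions both assign to control mouse 2. The descriptions were followed, so the mouse means, n = 2 and each comparison of the arrays of control mouse 2 rest on them. The array numbers within a mouse follow the order of deposit and are only names. The descriptions name the cells DGCs, taken here as dentate granule cells after what is known of the work, and all carry a note of preservation as treatment. The labels do not state strain, age, sex, the promoter of the transgene or the genotype of the controls. The tag re-LCM stands in the titles of transgenic mouse 1, transgenic mouse 2 array 1 and control mouse 1, and its meaning is not given. Elavl4 itself did not mark the groups: its brightest of 3 probe sets read 79.4, 93.3 and 60.1 on the transgenic arrays, against 122, 92.8 and 63.7 on the control arrays, a log2 difference of -0.33 (SE 0.27) that did not pass the test described next (adjusted p = 0.999, limma), and all 3 probe sets had a lower transgenic mean. Whether these probe sets can bind the transgene's mRNA is not known, so the genotype labels could not be checked by them, and every direction below is between arrays as labelled.

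The proteasome is the protease of cytosol and nucleus that degrades proteins marked with chains of ubiquitin. Its 20S core is a barrel of stacked rings: alpha subunits (Psma genes) form the outer rings and the gate, and beta subunits (Psmb genes) form the inner rings, some of which carry the active sites. The 19S regulatory particle caps the barrel, with a ring of ATPases (Psmc genes) that unfold substrates and non-ATPase subunits (Psmd genes) that bind ubiquitin, remove it and hold the particle together. In interferon-treated and many immune cells, Psmb8, Psmb9 and Psmb10 replace the standard catalytic subunits Psmb5, Psmb6 and Psmb7 to form the immunoproteasome. In neurons the proteasome is known for its part in synaptic plasticity and in the removal of misfolded proteins.

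Intensities are given on the authors' linear scale, in which the trimmed mean of every array is 150. Values at or under an intensity of 10.1, the 25th percentile of all arrays, have no order and were set to that floor before log2 was taken. A gene was tested where its mean log2 value exceeded the overall median of the probe sets. This left 14678, of which 11138 are named genes and the others probe sets without a single symbol, counted as genes here. The granule cell genes Prox1, Dsp, Calb1, C1ql2, Lct, Dock10, Pdzd2 and Tdo2 all passed that filter. Their summed intensity ran from 20743 to 20823 on the transgenic arrays and from 20305 to 23465 on the control arrays. Of the proteasome genes 35 of 39 passed, among them all 6 ATPase and all 14 non-ATPase genes, 7 of 8 alpha genes and 8 of 11 beta genes. Psma8, Psmb8, Psmb9 and Psmb11 did not pass. Of the 35 chosen probe sets, 5 carry a suffix that marks probes able to bind other transcripts. These are x for Psma6, Psmb4 and Psmc2 and s for Psmc6 and Psmd11, so the values of these 5 genes are uncertain. Differences are log2 of transgenic over control from a limma fit on mouse means (n = 2 mice per group).

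Promoter letters are shown for the 3 genes whose transgenic and control arrays did not overlap (Psma7, Psmd8 and Psmd11, below) and for Psmb5, the catalytic subunit with the most familiar activity. The sequences are the 250 bases before the annotated start, 5′ to 3′ on the strand of the gene, from RefSeq (GRCm38.p6). They lie at chr2:180042465-180042714 on the minus strand, chr7:29180674-29180923 on the minus strand, chr11:80428365-80428614 on the plus strand and chr14:54617996-54618245 on the minus strand. Capitals mark a CCAAT box in Psma7, the ETS family letters CCGGAAG, here on the opposite strand, in Psmd11, and the antioxidant response element core TGACNNNGC in Psmb5.
Psma7: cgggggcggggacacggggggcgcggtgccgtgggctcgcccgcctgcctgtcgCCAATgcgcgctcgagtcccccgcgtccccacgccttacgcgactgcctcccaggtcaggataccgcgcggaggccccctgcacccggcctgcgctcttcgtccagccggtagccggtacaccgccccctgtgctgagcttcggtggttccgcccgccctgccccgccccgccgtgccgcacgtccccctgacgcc
Psmd8: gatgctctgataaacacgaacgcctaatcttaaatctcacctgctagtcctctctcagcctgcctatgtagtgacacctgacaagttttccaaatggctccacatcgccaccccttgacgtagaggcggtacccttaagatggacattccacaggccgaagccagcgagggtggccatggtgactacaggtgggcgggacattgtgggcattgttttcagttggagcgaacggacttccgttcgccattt
Psmd11: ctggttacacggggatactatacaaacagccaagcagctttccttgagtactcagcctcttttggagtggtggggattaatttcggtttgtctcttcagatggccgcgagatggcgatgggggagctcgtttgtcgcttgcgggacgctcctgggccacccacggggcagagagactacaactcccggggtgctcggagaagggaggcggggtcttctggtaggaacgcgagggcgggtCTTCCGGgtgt
Psmb5: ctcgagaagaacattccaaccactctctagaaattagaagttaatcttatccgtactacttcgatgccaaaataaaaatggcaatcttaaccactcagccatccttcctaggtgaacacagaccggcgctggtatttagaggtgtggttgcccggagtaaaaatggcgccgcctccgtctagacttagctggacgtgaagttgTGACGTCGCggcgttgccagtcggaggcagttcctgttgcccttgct

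The antioxidant response element is the kind of site through which the transcription factors encoded by Nfe2l1 and Nfe2l2 act. The factor encoded by Nfe2l1 raises proteasome genes when the proteasome is inhibited. Promoter windows of 300 bases, with 50 bases after the start, were at hand for 32 of the 39 genes (34 windows). Both strands were searched. The core TGACNNNGC stood in 5 of the 34 windows (14.7%), those of Psmb5, Psmb6, Psmc6, Psmd12 and Psmd9, against 12.4% of all 32544 windows. CCGGAAG stood in 11 of the 34 windows (32.4%), from 10 genes, against 8.91% of all windows. CCAAT stood in 13 of the 34 windows (38.2%) and in 37.4% of all windows. The core of the interferon stimulated response element stood in 3 of the 34 windows (8.82%), those of Psmb3, Psmd4 and Psmd9, against 3.45% of all windows. Positions are counted from the annotated start, with the base before it at -1. The match in Psmb5 begins at -47, that in Psma7 at -196 and that in Psmd11 at -11. None of these motifs was in the Psmd8 window. The median GC content was 56% for the proteasome windows and 53% for all windows. A match is a run of letters and says nothing of a factor's binding.

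Between the transgenic and the control mice, proteasome genes differed by small amounts, and none passed the test. Of the 35 genes 26 had a higher and 9 a lower mean in the transgenic mice, with a median difference of 0.06 on the log2 scale and a range of -0.23 for Psmd9 to 0.35 for Psmd8. Among all genes tested 50.5% had a higher transgenic mean, and their median difference was 0.0026. The limma test called 0 of the 35 genes at an adjusted p under 0.05, and also 0 of all 14678 (0%), with an adjusted p of 0.999 for each proteasome gene. At an unadjusted p under 0.05 there were 0 proteasome genes, against 4.31% of all genes tested. The smallest unadjusted p of a member was 0.119. An exact permutation test of a single gene over 2 against 2 mice could not go below p = 0.333. Since RNA was pooled from many cells, a difference in the number of cells of a type and one in RNA per cell cannot be told apart.

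**Figure D1:**
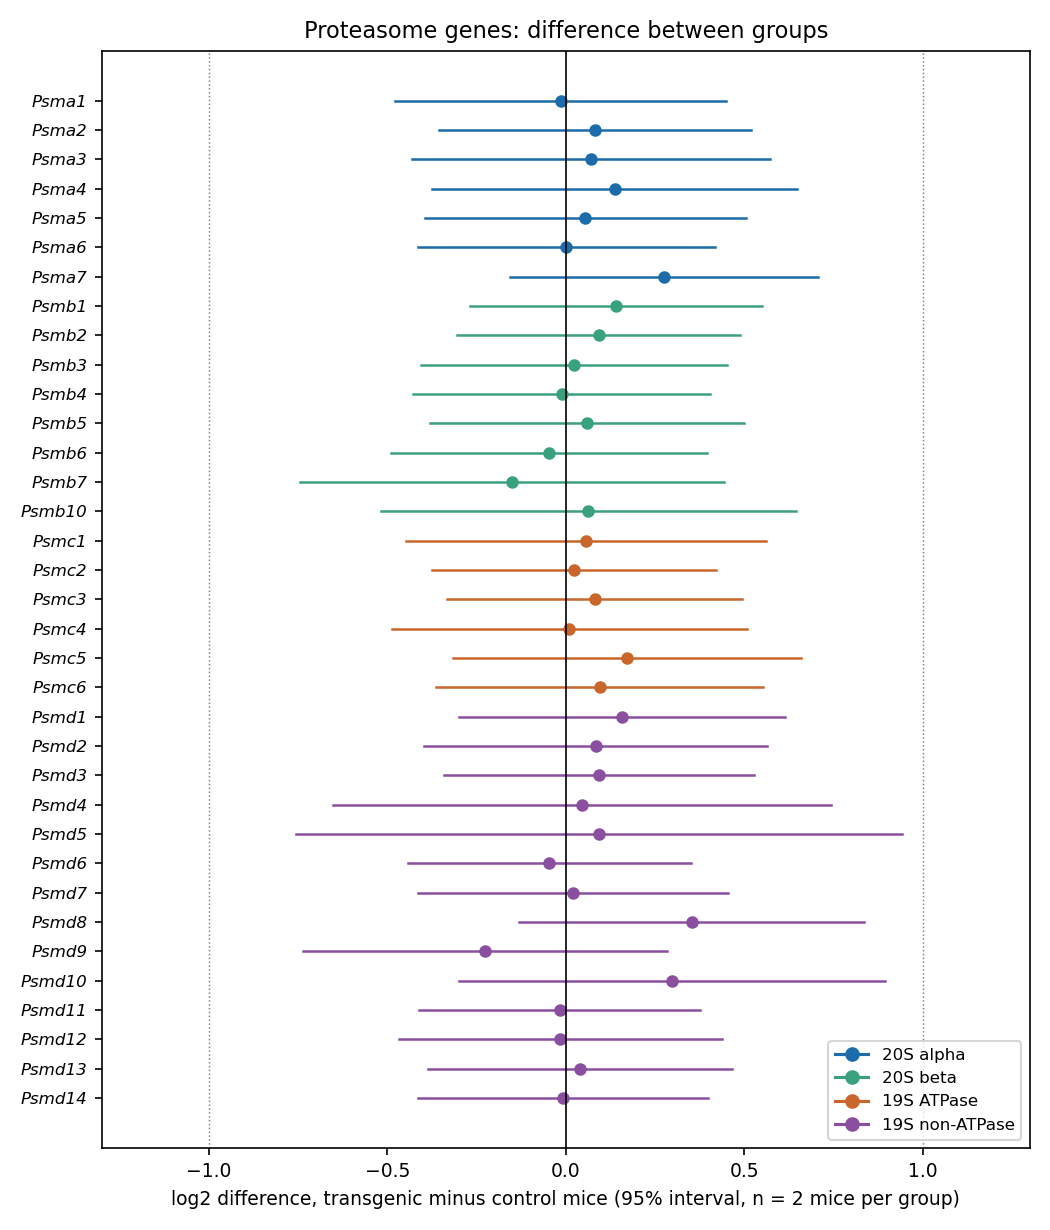
Log2 difference of transgenic minus control mice for each of the 35 tested proteasome genes, coloured by subcomplex, with points for the limma estimate and bars for its 95% interval (n = 2 mice per group, dotted lines at a 2-fold difference). All 35 intervals hold 0 and lie within the dotted lines.

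For the chosen probe set of each gene, the fit gives an interval of the difference. All 35 intervals held 0, and the 95% bounds farthest from 0 were -0.75 and 0.94, both for Psmd5, or 0.593-fold and 1.92-fold. These bounds do not cover the other probe sets of a gene, of which dimmer ones of Psma3 and Psmb1 stood at -1.05 and -0.76. For 26 of the 35 genes the difference was under 0.1 in size, for 31 it was smaller than its standard error, and for 4 it reached 0.2 or more. The proteasome genes also varied less between arrays of one group than genes did in general. Their median standard deviation within a group was 0.15 (log2), against 0.26 for all genes tested. The median ratio of the highest to the lowest array was 1.33 for proteasome genes and 1.62 for all genes tested. The proteasome genes and all genes tested were not matched for brightness, and the part of brightness in this contrast was not tested.

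The 2 transgenic mice and the 2 control mice did not separate by their proteasome level over all 35 genes. Taken as the mean over the 35 genes of log2 minus each gene's mean over 6 arrays, the level was 0.04 ± 0.08 in transgenic and -0.02 ± 0.04 in control mice (SD, n = 2). On the arrays it was 0.10, 0.04 and -0.06 for the transgenic mice (mouse 1, then the first and the second array of mouse 2) and 0.0086, 0.04 and -0.12 for the control mice in the same order. The groups overlapped, with array 2 of mouse 2 lowest in each. The array of transgenic mouse 1 held 27 of the 35 genes above their own mean, and array 2 of control mouse 2 held 7. Without control mouse 2 array 2 only 17 of 35 genes were higher in the transgenic mice (median -0.0030). Without transgenic mouse 1 it was 19 of 35 (median 0.0042), and without transgenic mouse 2 array 1 also 19 (median 0.02). The median was 0.10 without transgenic mouse 2 or its array 2 and 0.11 without control mouse 2 array 1. Within the arrays tagged re-LCM 23 of 35 genes were higher (median 0.10), and within the other arrays 12 of 35 (median -0.02). With the tag as a term in the fit 15 of 35 were higher (median -0.01).

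The difference between the first and the second array of one mouse was larger than that between groups. The former compares single arrays and the latter means of mice, which vary less by construction, so the sizes are not like for like. In transgenic mouse 2 array 1 exceeded array 2 for 25 of 35 genes, with a median difference of 0.15, and in control mouse 2 for 26 of 35, with a median of 0.16. Over all genes tested array 1 exceeded array 2 for 50.8% in the transgenic and 50.2% in the control mouse. Beta genes followed this order most closely, with 7 of 8 higher on array 1 in transgenic mouse 2 (median 0.31) and 8 of 8 in control mouse 2 (median 0.20). Genes of oxidative phosphorylation and cytosolic ribosomal proteins, which like the proteasome are abundant housekeeping mRNAs, had the same order. The 88 oxidative phosphorylation genes were higher on array 1 for 72 genes in transgenic and 75 in control mouse 2, and the 44 ribosomal protein genes for 38 and 41. Between the groups, 63 of the 88 and 17 of the 44 had a higher transgenic mean (71.6% and 38.6%), beside 74.3% of the proteasome genes. What the 2 arrays of a mouse differ in is not given in the labels, and the tag re-LCM differs between the arrays of transgenic mouse 2 only.

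**Figure D2:**
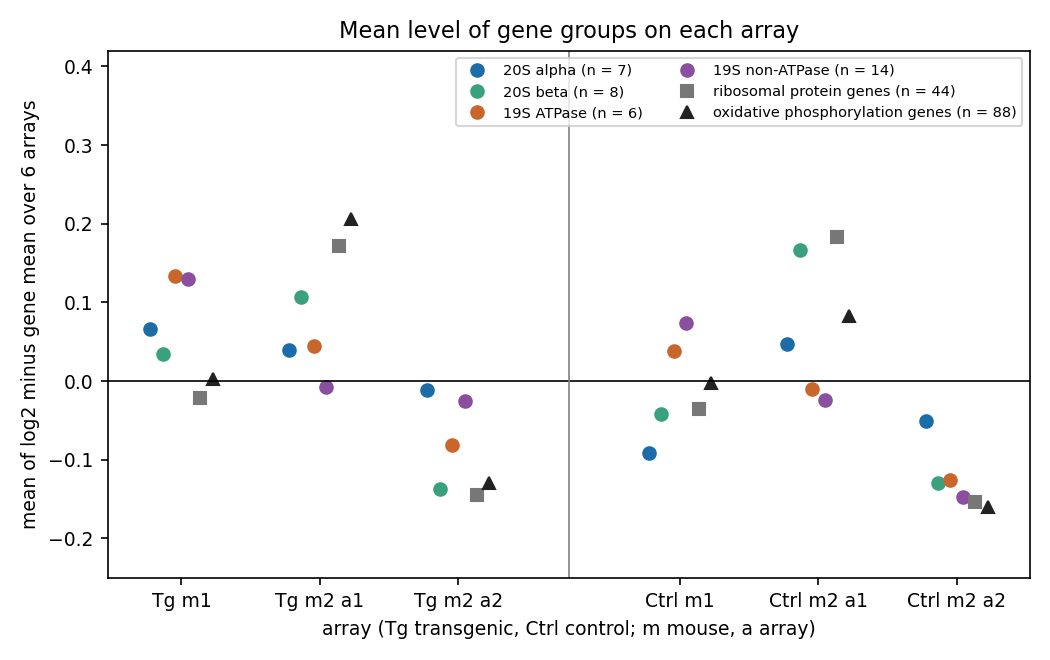
Mean level of each proteasome subcomplex on each of the 6 arrays, as log2 intensity minus each gene's mean over the arrays, beside ribosomal protein and oxidative phosphorylation genes. Beta genes lie at 0.11 and 0.17 on array 1 and at -0.14 and -0.13 on array 2 of transgenic and control mouse 2, and single arrays of the groups overlap in every proteasome subcomplex.

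Alpha genes of the 20S core came out with 6 higher and 1 lower of the 7 tested (median 0.07). The alpha ring gates the entry of substrates and docks the 19S particle. Their mean level was 0.04 ± 0.04 in transgenic and -0.05 ± 0.06 in control mice (SD, n = 2), and single arrays of the groups overlapped. By mouse they did not overlap, with 0.07 and 0.01 in transgenic mice 1 and 2, against -0.09 and -0.0016 in control mice 1 and 2. Without transgenic mouse 1 it was 3 of 7 (median -0.0094), and within the untagged arrays 2 of 7 (median -0.10).

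Psma7 encodes one subunit of the alpha ring. Its intensity was 844, 904 and 887 on the transgenic arrays (mouse 1, then both arrays of mouse 2), against 673, 775 and 760 on the control arrays. All 3 transgenic arrays lay above all 3 control arrays. The log2 difference was 0.27 (SE 0.16, 95% interval -0.16 to 0.71), a ratio of 1.21, and it did not pass the limma test (adjusted p = 0.999). Over leave-outs of a mouse or array it ran from 0.18, without control mouse 1, to 0.37, without control mouse 2. A second, dimmer Psma7 probe set read 372, 417 and 357 on the transgenic and 345, 334 and 381 on the control arrays, with overlap and a difference of 0.11.

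Psma4, another alpha subunit, read 558, 489 and 400 on the transgenic arrays, against 481, 481 and 374 on the control arrays. The second array of mouse 2 was the lowest in both groups, and the groups overlapped. The difference was 0.14 (SE 0.19), and -0.03 without transgenic mouse 1. The others, Psma1, Psma2, Psma3, Psma5 and Psma6, differed by -0.01 to 0.08. Psma3 showed the largest spread among them, with 4110, 3621 and 6701 on the transgenic arrays, against 3922, 3834 and 5710 on the control arrays. Its high arrays were those of array 2 of mouse 2 in both groups, the opposite of most proteasome genes.

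Among beta genes 5 of the 8 tested were higher and 3 lower (median 0.04). Their mean level was 0.0096 ± 0.03 in transgenic and -0.01 ± 0.04 in control mice (SD, n = 2). Without control mouse 1 the median was -0.05, with 3 of 8 higher, and within the untagged arrays it was -0.20, with 2 of 8 higher.

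The 3 standard catalytic subunits showed no common direction. Psmb5, the chymotrypsin-like subunit that proteasome inhibitor drugs mainly block, read 2250, 2372 and 1894 on the transgenic arrays, against 1949, 2354 and 2162 on the control arrays. The groups overlapped, with a difference of 0.06 (SE 0.17). Psmb6, the caspase-like subunit, read 1047, 1345 and 1089 on the transgenic arrays, against 1120, 1277 and 1148 on the control arrays.

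The Psmb6 difference was -0.05 (SE 0.17), and array 1 of mouse 2 was the highest in both groups. Psmb7, the trypsin-like subunit, read 636, 370 and 680 on the transgenic arrays, against 719, 684 and 438 on the control arrays. One array of mouse 2 was low in each group, the first in the transgenic and the second in the control mouse. The difference was -0.15 (SE 0.23), and it was 0.07 without transgenic mouse 2 array 1 and -0.37 without its array 2. Of the structural beta genes, Psmb1 read 576, 743 and 524 on the transgenic arrays, against 556, 570 and 496 on the control arrays, a difference of 0.14 (SE 0.16) with overlap. Psmb2, Psmb3 and Psmb4 differed by 0.09, 0.02 and -0.01.

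Psmb8 and Psmb9 of the immunoproteasome were near the floor in both groups, while Psmb10 was not. Psmb8, which takes the place of Psmb5, read 18.7, 2.28 and 16.7 on the transgenic arrays, against 22.4, 20.4 and 6.27 on the control arrays, with 1 array of each group under the floor of 10.1. Its second probe set was under the floor on all 6 arrays. Psmb9, which takes the place of Psmb6, read 16.95, 24.6 and 20.7 on the transgenic arrays, against 18.5, 44.3 and 23.1 on the control arrays. All 6 values were above the floor but too low for the filter, so the unfiltered differences of -0.20 for Psmb8 (SE 0.36) and -0.32 for Psmb9 (SE 0.38) carry no call.

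Psmb10, which takes the place of Psmb7, was the 1 immunoproteasome gene that passed the filter. It read 109, 107 and 71.3 on the transgenic arrays, against 81.7, 120 and 94.8 on the control arrays, a difference of 0.06 (SE 0.22) with overlap. Among the interferon and MHC class I genes, which are induced together with these subunits, 4 of the 8 with a probe set passed the filter, 1 higher and 3 lower (median -0.21) and 0 past the test. Tapbp, which loads peptides on MHC class I, had a difference of -0.50 (SE 0.20), the MHC light chain gene B2m -0.37 (SE 0.21), the interferon-induced factor Irf1 0.23 (SE 0.23) and H2-K1 -0.06 (SE 0.37). Microglia and endothelium are other possible sources of these mRNAs. Of the microglia markers 7 of 10 passed and all 7 were lower, with summed intensities of 3025 to 3752 on the transgenic and 3209 to 4564 on the control arrays, and Itgam was under the floor on all arrays. Of the endothelial and pericyte markers 5 of 8 passed and 3 were lower, with sums of 240 to 287 on the transgenic and 252 to 406 on the control arrays, and Pecam1 was under the floor. Their part in the immunoproteasome values was not tested.

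**Figure D3:**
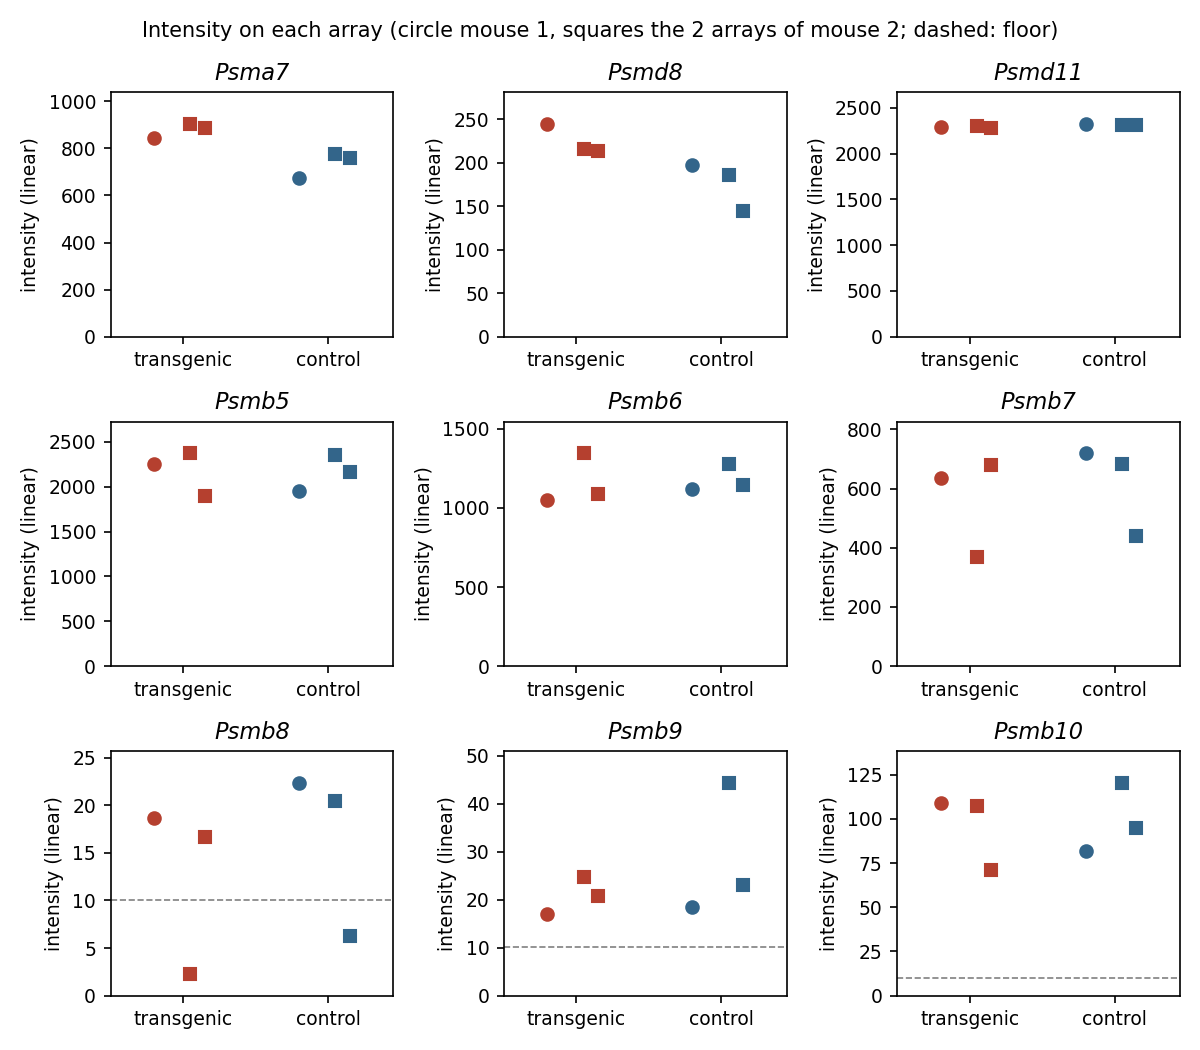
Linear intensity on each array for the 3 genes whose groups did not overlap (Psma7, Psmd8, Psmd11), the standard catalytic genes Psmb5, Psmb6 and Psmb7 and the immunoproteasome genes Psmb8, Psmb9 and Psmb10, with transgenic arrays left of control arrays. Circles are mouse 1, squares the arrays of mouse 2 and dashed lines the floor of 10.1, under which Psmb8 falls on 1 array of each group.

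Psma8, the alpha subunit of the testis proteasome, read 18.7, 1.89 and 10.7 on the transgenic arrays, against 9.32, 0.959 and 32.7 on the control arrays, with 3 arrays under the floor. Psmb11, the beta subunit of the thymus proteasome, was under the floor on all 6 arrays, between 1.52 and 4.19 on the transgenic and between 1.72 and 4.01 on the control arrays. No level can be ordered for either gene.

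All 6 ATPase genes of the 19S ring had a higher transgenic mean, with differences of 0.0099 to 0.17 (median 0.07). The ATPases form 1 ring that threads unfolded substrates into the core. None was larger than its standard error or passed the test, and the groups overlapped on the arrays for all 6. Their mean level was 0.06 ± 0.11 in transgenic and -0.01 ± 0.08 in control mice (SD, n = 2). The count of higher genes was 3 of 6 without control mouse 2 and without its array 2, and 4 of 6 without transgenic mouse 2 array 1 and with quantile normalization. The arrays tagged re-LCM gave 4 of 6, the other arrays 3 of 6, and the tag as a term 3 of 6.

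Psmc5 read 649, 478 and 565 on the transgenic arrays, against 498, 555 and 515 on the control arrays. The array of transgenic mouse 1 was the highest and array 1 of transgenic mouse 2 the lowest of the 6. The difference was 0.17 (SE 0.19), and 0.0097 without transgenic mouse 1. Psmc6 read 1667, 1338 and 1615 on the transgenic arrays, against 1574, 1249 and 1490 on the control arrays, with array 1 of mouse 2 the lowest in both groups and a difference of 0.09 (SE 0.17). Psmc1, Psmc2, Psmc3 and Psmc4 differed by 0.06, 0.02, 0.08 and 0.0099. Psmc4 varied most of the 6 between arrays of one mouse, with 1464, 2101 and 1090 on the transgenic arrays, against 1670, 1512 and 1132 on the control arrays.

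Non-ATPase genes of the 19S particle numbered 9 higher and 5 lower of 14 (median 0.04). This group holds the scaffold subunits, the ubiquitin receptors, the deubiquitinase, the lid subunits and the chaperones that help to assemble the base. Their mean level was 0.06 ± 0.10 in transgenic and -0.0057 ± 0.11 in control mice (SD, n = 2). It was highest on the mouse 1 array of each group, 0.13 in transgenic and 0.07 in control mice, and lowest on array 2 of control mouse 2 (-0.15). Without transgenic mouse 1 it was 6 of 14 higher (median -0.02), and with the tag as a term or within the untagged arrays 5 of 14 (median -0.02 for both).

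Psmd8, a subunit of the 19S lid, had the largest difference of the 35 genes. It read 245, 216 and 213 on the transgenic arrays, against 197, 186 and 144 on the control arrays. The 3 transgenic arrays lay above the 3 control arrays, and array 2 of control mouse 2 was the lowest. The log2 difference was 0.35 (SE 0.18, 95% interval -0.13 to 0.84), a ratio of 1.28, and it did not pass the limma test (adjusted p = 0.999, unadjusted p = 0.119). Over leave-outs it ran from 0.22, without control mouse 2, to 0.49, without control mouse 1. With the mouse as a random effect its unadjusted p was 0.0206 (limma, adjusted p = 0.334), a fit in which 12.1% of all genes had an unadjusted p under 0.05. Psmd8 has no second probe set.

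Psmd11, a lid subunit at the contact between the 19S particle and the core, read 2294, 2300 and 2276 on the transgenic arrays, against 2324, 2316 and 2308 on the control arrays. Every transgenic array lay below every control array, yet by so little that the difference was -0.02 (SE 0.15). Its values differed less between arrays than those of any other proteasome gene. Of its 8 probe sets 4 passed the filter. The other three gave 0.17, 0.05 and -0.20, all with overlap between the groups. A dim probe set that did not pass the filter gave -1.15, with 12.3, 10.5 and 20.4 on the transgenic arrays, against 25.4, 38.9 and 31.1 on the control arrays.

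Psmd10, which encodes gankyrin, a chaperone of 19S base assembly, read 202, 129 and 156 on the transgenic arrays, against 143, 131 and 134 on the control arrays. The array of transgenic mouse 1 stood above the other 5, while array 1 of transgenic mouse 2 was the lowest of all 6. Its difference was 0.30 (SE 0.23), but 0.04 without transgenic mouse 1. Psmd5, a further assembly chaperone, read 252, 207 and 239 on the transgenic arrays, against 299, 211 and 129 on the control arrays, so that both the highest and the lowest array were control arrays. Its difference was 0.09 (SE 0.32) and ran from -0.34 to 0.52 over leave-outs, the widest of the 35 genes. Psmd9, the third assembly chaperone, was named after its values were seen, as the gene with the largest difference towards lower values. It read 46.3, 50.4 and 49.0 on the transgenic arrays, against 63.7, 44.6 and 54.9 on the control arrays, a difference of -0.23 (SE 0.19). Its other 2 probe sets pointed the other way, with 0.41 and 0.61.

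Psmd4, a ubiquitin receptor of the 19S particle, read 690, 343 and 557 on the transgenic arrays, against 506, 619 and 505 on the control arrays, so that the transgenic group held both extremes. Its difference was 0.05 (SE 0.27). The scaffold subunits Psmd1 and Psmd2 differed by 0.16 (SE 0.17) and 0.08 (SE 0.18). Psmd14, the deubiquitinase that frees ubiquitin from substrates, differed by -0.0077 (SE 0.16), with 2827, 3031 and 2705 on the transgenic arrays, against 2983, 2895 and 2600 on the control arrays. The lid genes Psmd3, Psmd6, Psmd7, Psmd12 and Psmd13 differed by -0.05 to 0.09.

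Taking the array values as they stand, 2 proteasome genes (Psma7 and Psmd8) had all transgenic above all control arrays and 1 (Psmd11) all below. Together these are 8.57% of the 35 genes, beside 8.07% of all genes tested, of which 3.86% lay above and 4.22% below. The proteasome share was thus near the background.

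**Figure D4:**
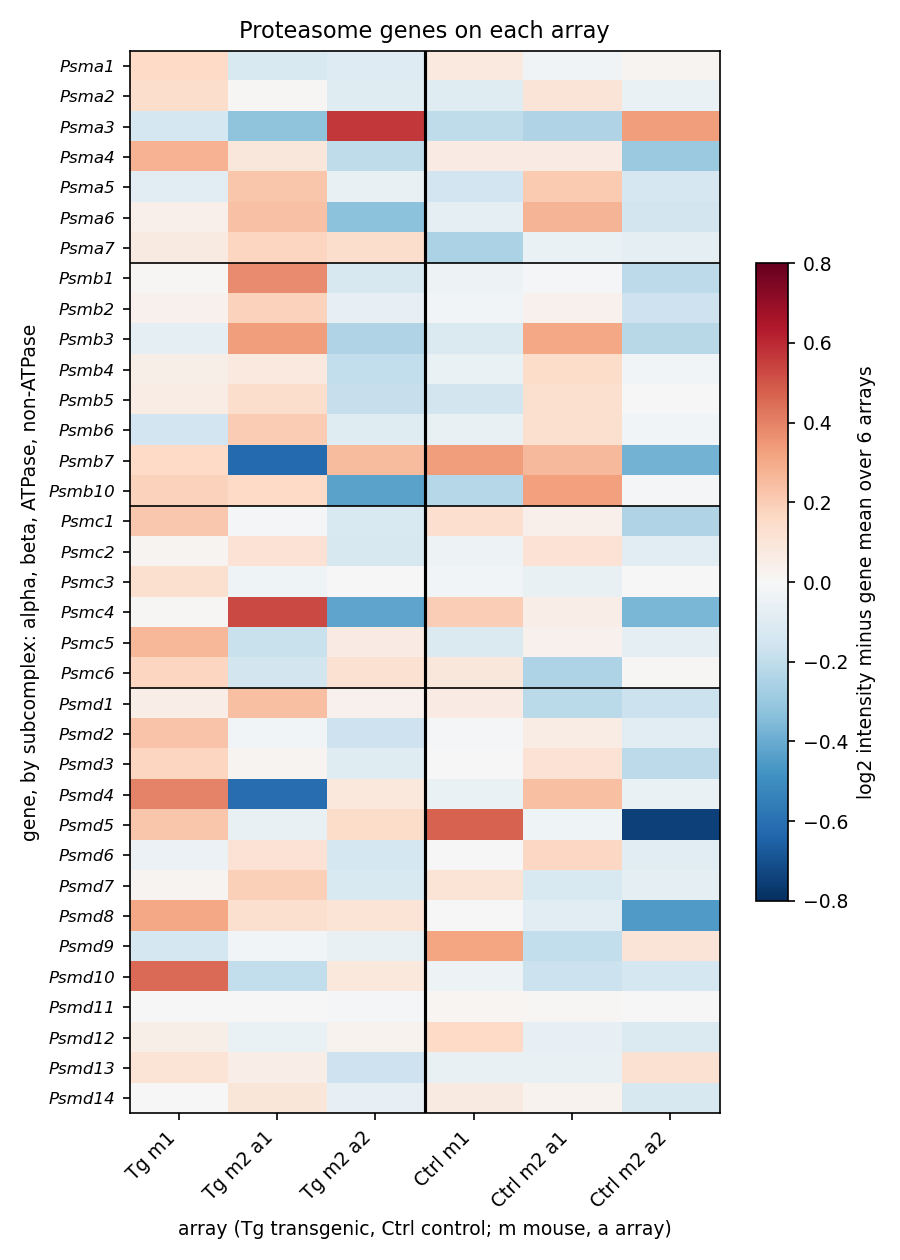
Log2 intensity minus the mean over 6 arrays for each of the 35 tested proteasome genes (rows, by subcomplex) on the 3 transgenic and 3 control arrays (columns), red above and blue below the gene's mean. Columns of the transgenic and control arrays do not form blocks of one colour, and array 2 of control mouse 2 is the bluest column, with 7 of 35 genes above their mean.

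Several probe sets of a gene did not always point the same way. Of the 35 genes 16 had more than 1 probe set above the filter, and in 7 of these the probe sets differed in sign. Among these 16 the widest gap was in Psma3. There a dim probe set read 21.7, 31.2 and 18.8 on the transgenic arrays, against 47.4, 65.1 and 35.02 on the control arrays. For this probe set the groups did not overlap, and the difference was -1.05, while the bright probe set gave 0.07. The dim one was singled out after its values were seen and is given with no test. So was a Psmd7 probe set that did not pass the filter, with a difference of -1.50. It read 6.55, 5.21 and 10.3 on the transgenic arrays, against 26.5, 32.2 and 29.5 on the control arrays. The groups did not overlap, but 2 of these arrays were under the floor, and the chosen Psmd7 probe set gave 0.02. For Psmb1 the brightest probe set gave 0.14 and the other 2 gave -0.25 and -0.76. A Psma6 probe set dimmer than the chosen one, with x in its name, read 221, 223 and 212 on the transgenic arrays, against 189, 147 and 192 on the control arrays, a difference of 0.30 beside 0.0011 for the chosen one. With the mean over the probe sets of a gene, 26 of 35 genes were again higher (median 0.06), and 5 (14.3%) did not overlap between groups, beside 8.78% of all genes. Psma3 then stood at -0.49, with an unadjusted p of 0.0361 and an adjusted p of 0.979 (limma).

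Of the genes that act around the proteasome, each list had 0 past the limma test. Of the assembly factors outside the Psma to Psmd names 3 of 5 were higher (median 0.06), with the core chaperone genes Psmg4 at -0.65 (SE 0.32), Psmg3 at 0.29 (SE 0.28), Psmg2 at 0.08 and Psmg1 at 0.06. Of the activators and the inhibitor 3 of 4 were higher (median 0.07), with the nuclear activator gene Psme3 at -0.19 (SE 0.17), the interferon-inducible activator gene Psme1 at 0.13 (SE 0.15), the inhibitor gene Psmf1 at 0.14 (SE 0.20) and Psme4 at 0.0040. Of further subunits and cofactors 5 of 7 were higher (median 0.11), with the ubiquitin ligase gene Ube3c at -0.20 (SE 0.17, all transgenic arrays below all control arrays), Ecpas at -0.18 (SE 0.15) and the deubiquitinase genes Usp14 at 0.20 (SE 0.19) and Uchl5 at 0.16 (SE 0.16).

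Of the ubiquitin shuttle receptors, which carry tagged proteins to the proteasome, 1 of 5 was higher (median -0.04), with Sqstm1 at 0.26 (SE 0.24), Rad23b at -0.16 (SE 0.20), Ubqln1 at -0.12 (SE 0.19) and Ubqln2 at -0.04 (SE 0.16). Of the genes for ubiquitin and its activating enzymes only Uba6 had a probe set of its own, at -0.33 (SE 0.23). Of the genes that control proteasome transcription 4 of 7 were higher (median 0.05). The transcription factor gene Nfe2l1 stood at 0.05 (SE 0.22) and Nfe2l2 at -0.13 (SE 0.23), Keap1, which encodes the factor that holds NFE2L2 in check, at 0.30 (SE 0.17) with all transgenic arrays above all control arrays, and Ngly1 at -0.24 (SE 0.15). Mafk and Bach1, which encode partners and competitors of these factors, stood at 0.20 (SE 0.20) and -0.14 (SE 0.15).

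Markers of other cell types moved between arrays by more than the proteasome genes did. Their lists hold 4 to 8 tested genes, some of them dim, against 35 proteasome genes. A mean over fewer or dimmer genes varies more, and the part of this in the contrast was not tested. Oligodendrocyte markers were lower in 8 of 8 tested genes, with sums of 5598 to 8284 on the transgenic and 4821 to 12225 on the control arrays, the highest on control mouse 1. Astrocyte markers were lower in 7 of 7, with sums of 8361 to 11864 and 9447 to 14766, and interneuron markers in 6 of 7, with sums of 2346 to 2487 and 2227 to 2767, transgenic arrays first. Most of each interneuron sum came from Gad1, the 1 gene that was higher (0.11), so the sums say little of the other 6. Those differed by -1.47 (Sst) to -0.36 (Npy). The mean level of interneuron markers was -0.25 ± 0.25 in transgenic and 0.29 ± 0.44 in control mice (SD, n = 2). None of the markers in these 3 lists was under the floor on all arrays. Pyramidal cell markers were lower in 3 of 4, with sums of 334 to 401 on the transgenic and 262 to 465 on the control arrays. The granule cell genes themselves were lower in 6 of 8 (median -0.07). The part of other cells in the proteasome values was not tested. On the scale of the proteasome level (mean log2 minus each gene's mean), transgenic mouse 1 was the lowest array in oligodendrocyte (-0.56), microglia (-0.30), astrocyte (-0.31) and interneuron (-0.43) markers and the highest in the proteasome level (0.10). Control mouse 1 was the highest array in these 4 lists (0.92, 0.30, 0.51 and 0.61), with a proteasome level of 0.0086. Endothelial and pericyte markers were highest on array 1 (0.39) and lowest on array 2 (-0.29) of control mouse 2. These arrays were also the extremes for pyramidal cell markers (0.16 and -0.26). Transgenic mouse 1 stood at -0.04 and 0.03 in these further lists, and it was the lowest array in granule cell markers (-0.07).

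**Figure D5:**
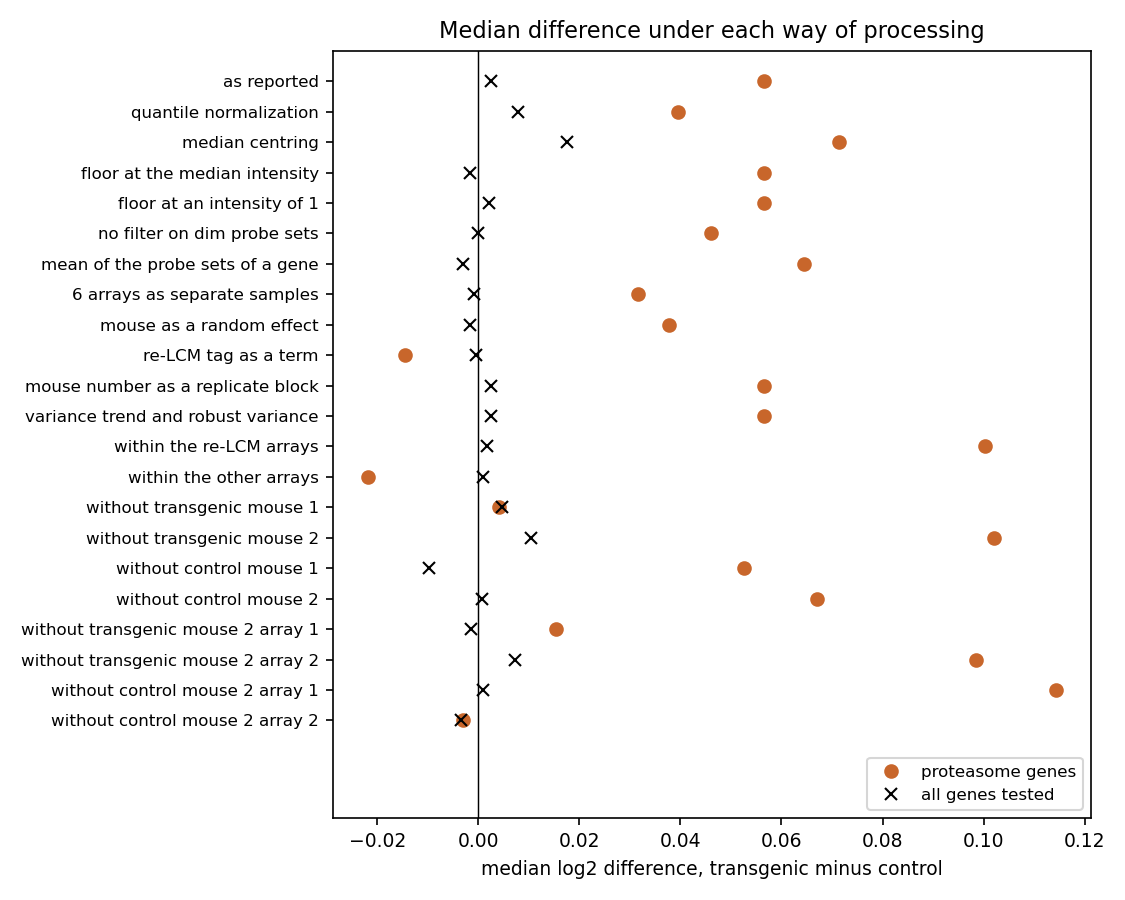
Median log2 difference (transgenic minus control) of the proteasome genes (circles) and of all genes tested (crosses) under each way of processing, with the values as reported at the top. The proteasome median runs from -0.02 within the untagged arrays to 0.11 without control mouse 2 array 1.

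Across 21 other ways of processing the data, 8 of the 35 genes kept the sign of their difference in each. The other floors, the fit with no filter, the replicate block and the variance trend could not change a sign of these genes. The count thus rests on the remaining alternatives, and the same count over all genes tested was not made. The 8 genes were Psma7, Psmb2, Psmc3, Psmc5, Psmd1, Psmd8 and Psmd10, all higher in the transgenic mice, and Psmd11, lower. Within these alternatives limma called 0 proteasome genes, and the smallest adjusted p of a member was 0.334, for Psmd8 with the mouse as a random effect.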

How the data were processed

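Total RNA was measured on 6 Affymetrix mouse arrays. The deposited values are linear intensities per probe set, which the authors had scaled: their 2% trimmed mean is 150.001 on each array. The sources used here do not name the probe set program or its background correction, so the reliability of dim values is unknown. The number of arrays limits the precision. After removal of 64 control probe sets, 45037 remained. Platform symbols were used, and all 39 proteasome genes matched RefSeq by Entrez identifier with 0 symbols changed. Values were floored at the pooled 25th percentile and taken as log2. The probe set of highest mean stood for each gene, and those above the overall median were kept for testing. Arrays of a mouse were averaged, and limma 3.58.1 (R 4.3.3) compared the groups by lmFit and eBayes. P-values were adjusted by the Benjamini-Hochberg method over all 14678 genes (2 residual and 2.70 prior degrees of freedom). The code was tested on simulated data with independent arrays and planted changes larger than those of the proteasome genes. That test says nothing of differences of the size seen here.

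Members, lists and tests were chosen with earlier results of these data known. Per-array values were to be given for the catalytic and immunoproteasome genes, for genes with an unadjusted p under 0.05 or no overlap between groups, and for the 2 largest differences of each subcomplex. Genes that failed the filter were named with their values. Psma3, Psmc4, Psmd4, Psmd5, Psmd9 and Psmd14 were added after their values were seen, as was the dim probe set of Psmd7. From each list up to 4 genes of smallest p were named, with Nfe2l1 and Nfe2l2 added. Alternatives changed the normalization, floor, filter, probe set rule, replicate unit, tag, block, variance model and the mice and arrays included. Protein sequences were not used here.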

Additional observations from a re-analysis of the deposited data

How the results depend on the processing

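Limma called 0 genes under each alternative that allowed a test but 1, against 632 at an unadjusted p under 0.05 in the reported fit. With a variance trend and robust variance it called 1 gene, which is not a proteasome gene. The count of 26 of 35 proteasome genes with a higher transgenic mean stayed within 1.5 times of that value except with the re-LCM tag as a term (15, median -0.0145), within the untagged arrays (12, median -0.0219) and without control mouse 2 array 2 (17, median -0.0030). Over leave-outs of a mouse or array the count ran from 17 to 28 and the median from -0.0030 to 0.11, with 0 genes called in each. Normalization and filter left the median between 0.04 and 0.07. The other floors could not move it, since all readings of the 35 chosen probe sets lay above them. The median of all genes moved by at most 0.02 under the changes of normalization, floor and filter. The count of proteasome genes with no overlap was 5 with the mean over probe sets, and 20 within the tagged and 24 within the untagged arrays. Over leave-outs it ran from 4 (11.4%, beside 15.7% of all genes) without transgenic mouse 1 to 17 (48.6%, beside 48.9%) without transgenic mouse 2. It was 7 (20%, beside 18.5%) and 6 (17.1%, beside 19.2%) without the first and the second array of transgenic mouse 2. Without control mouse 1 it was 5 (14.3%, beside 17.3%), and without control mouse 2 it was 8 (22.9%, beside 45.2%). Without the first and the second array of control mouse 2 it was 5 (14.3%, beside 16.9%) and 4 (11.4%, beside 18.0%). Fewer arrays overlap less by construction, and 64.0% and 63.1% of all genes did not overlap within the tagged and untagged arrays. With 1 mouse left in a group, it was assumed to vary like the other group.

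With the mouse number as a replicate block limma called 0 genes. Mouse numbers are balanced over the groups, so the block could change only the p-values and not the differences. The 26 of 35 proteasome genes higher (median 0.06) are therefore the same as without it by construction. Mice of the same number were not paired in the labels. The deviations of transgenic mouse 1 and control mouse 1 from their group means had a correlation of 0.03 across genes. The arrays of these mice both carry the tag re-LCM, and whether mice of the same number were handled together is not given. Arrays of a mouse had a correlation of -0.54 in the random effect fit. A value under 0 means that arrays of one mouse were less alike than arrays of different mice in a group, which is not a variance between mice. In that fit 12.1% of all genes had an unadjusted p under 0.05 (limma), beside 4.31% in the reported fit. Of 735 gene differences under alternatives, 135 changed sign, none of them of a called gene. The 735 include those under alternatives that could not change a difference. With 2 mice per group, the fit could not resolve differences of the size seen here: the median standard error of a proteasome gene was 0.17, beside a median difference of 0.06 in size.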
